A study of Mus musculus with 56 samples.

Results

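Expression of the genes Palld, Acss3, Armh3 and Myo5a was examined in the livers of 56 mice. They were selected on these same measurements, as genes with a strongly lower level in single treated groups, and are 4 of the 45513 genes in the counts. All 4 passed the filter on low counts that left 14314 genes. The question was whether each was lower with particular drugs or in all treated mice, those given L-NAME included. Because the levels against control chose the genes, these levels are given as a description without a test.

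The mice were female APOE*3Leiden.CETP mice, 9 to 14 weeks of age at the start, which carry human APOE*3Leiden and CETP transgenes and so have a humanized lipoprotein metabolism. All were fed a Western-type diet with 15% cacao butter and 0.15% cholesterol, for 3 weeks before and 16 weeks during treatment. Each of the 7 groups had 8 mice: control mice given vehicle by gavage, mice given the nitric oxide synthase inhibitor L-NAME in the drinking water (0.12 to 0.2%) with vehicle gavage, and mice given a tyrosine kinase inhibitor used against chronic myeloid leukaemia. These were imatinib at 150 mg/kg in 2 gavages per day, nilotinib at 10 (low dose) or 30 mg/kg (high dose), and ponatinib at 3 (low dose) or 10 mg/kg (high dose), with 1 gavage of drug and 1 of vehicle per day for the last 2 drugs. Every treated group is compared with the same 8 control mice. The L-NAME group is described in the sample labels and not in the methods of the study. A single transgenic strain of 1 sex on 1 diet was used, which limits the groups as a model.

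Palladin, the product of Palld, is an actin-binding scaffold of stress fibres and focal adhesions that binds alpha-actinin, profilin and VASP, and it is known for its presence in contractile and wound-healing cells. ACSS3 is a mitochondrial acyl-CoA synthetase that activates short-chain fatty acids, propionate above all, and is abundant in liver. Propionyl-CoA then passes through a carboxylase, an epimerase and a mutase to succinyl-CoA. ARMH3 is a Golgi protein that works with the phosphatidylinositol 4-kinase PI4KB and the ARF activator GBF1. Myosin Va, the product of Myo5a, is a motor that walks along actin filaments with calmodulin as its light chain and carries pigment granules and secretory vesicles.

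Annotated on GRCm38 with GENCODE vM21, Palld (ENSMUSG00000058056) spans chr8:61511433-61902690 on the minus strand, Acss3 (ENSMUSG00000035948) chr10:106933517-107123668 on the minus strand, Armh3 (ENSMUSG00000039901) chr19:45817364-45998488 on the minus strand, and Myo5a (ENSMUSG00000034593) chr9:75071015-75223688 on the plus strand. All 4 are protein-coding and long: Palld spans 391 kb, Acss3 190 kb, Armh3 181 kb and Myo5a 153 kb. Exons take 2.63% of the span of Palld, 3.78% of Acss3, 2.42% of Armh3 and 9.70% of Myo5a. Among the genes tested, 98.8% had a shorter span than Palld and 93.8% a shorter span than Myo5a. The selection did not use length. Of the exonic bases of Acss3, 33.9% are shared with the overlapping gene Ppfia2, and 1.66% of those of Armh3 with 4930505N22Rik. No shared exonic base was found for Palld or Myo5a. None of the genes that overlap the 4 passed the filter on low counts. The strand setting of the counting is not given in the sources used here, so reads from overlapping genes on opposite strands may not have been told apart.

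RefSeq on GRCm38.p6 gives 3 transcription start sites for Palld and 1 each for Armh3 and Myo5a, and the reads counted on Palld were not divided among its starts. The 250 bases upstream of these starts are shown because a change in level of a gene with several starts could lie at any of them, with the letters of a GC box (GGGCGG) or a TATA box (TATAAA), on either strand, in capitals. The Palld windows are chr8:61902708-61902957, chr8:61760090-61760339 and chr8:61591140-61591389, and the Armh3 window is chr19:45998489-45998738, each written 5′ to 3′ on the minus strand.
Palld, outermost start: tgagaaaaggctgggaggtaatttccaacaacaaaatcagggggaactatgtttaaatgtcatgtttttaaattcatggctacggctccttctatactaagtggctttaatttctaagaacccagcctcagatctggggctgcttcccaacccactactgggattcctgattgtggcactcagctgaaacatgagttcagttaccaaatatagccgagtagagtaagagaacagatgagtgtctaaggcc
Palld, middle start: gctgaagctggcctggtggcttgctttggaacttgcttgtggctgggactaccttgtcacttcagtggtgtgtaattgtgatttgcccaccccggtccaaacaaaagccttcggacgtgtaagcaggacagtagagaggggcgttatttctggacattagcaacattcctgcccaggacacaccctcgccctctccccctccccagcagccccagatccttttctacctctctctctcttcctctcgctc
Palld, innermost start: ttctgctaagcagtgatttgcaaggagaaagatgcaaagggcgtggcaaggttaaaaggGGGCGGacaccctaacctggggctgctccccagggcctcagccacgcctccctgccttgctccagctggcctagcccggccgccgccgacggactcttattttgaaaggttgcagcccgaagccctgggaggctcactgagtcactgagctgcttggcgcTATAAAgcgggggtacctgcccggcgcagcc
Armh3: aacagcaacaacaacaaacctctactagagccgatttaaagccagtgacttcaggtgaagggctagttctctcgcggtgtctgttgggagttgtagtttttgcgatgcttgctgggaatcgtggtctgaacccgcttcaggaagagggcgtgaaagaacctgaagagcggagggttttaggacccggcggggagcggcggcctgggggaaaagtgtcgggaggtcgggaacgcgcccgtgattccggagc
The innermost Palld start had 1 GC box and 1 TATA box, and the other two Palld windows and the Armh3 window held neither. Among 32851 windows of the same length, 32.7% held a GC box and 12.4% a TATA box. The GC content was higher at each Palld start further inward, 43.2%, 55.2% and 62.4%, and was 56.8% for Armh3 and 74.0% for Myo5a, against a median of 52.4% over all windows. The Myo5a window held 1 GC box and no TATA box, and its letters are not shown because most of it lies in an annotated exon.

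Counts on genes summed to 5342379 in the shallowest and 97473341 in the deepest library (median 7570238), and the deepest was replicate 2 of the L-NAME group. Among uniquely aligned reads, the share outside annotated genes was 7.55 to 8.67% in control mice, 7.78 to 9.75% with low-dose ponatinib, and 8.16 to 16.8% over the other treated groups, highest in that same L-NAME library. In 11 of the 48 treated libraries, none of them from L-NAME mice, fewer genes were detected at equal depth than in every control library. The livers expressed the hepatocyte markers, with a summed level of 10 such genes between 75660 and 164100 CPM. CPM is edgeR's count of a gene corrected for library size by TMM. Since whole liver was sequenced, fewer cells of a type and less RNA per cell cannot be told apart.

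Palld was lower than the control median in 48 of 48 treated mice. In control mice its level was 20.7 CPM in the lowest, 30.8 at the median and 56.65 in the highest mouse (33.1 ± 10.9, mean ± SD, n = 8). With L-NAME the lowest, median and highest levels were 3.855, 9.50 and 12.3 CPM. They were 0.671, 8.84 and 19.1 CPM with high-dose ponatinib, and 3.78, 12.25 and 13.6 CPM with low-dose nilotinib. No mouse of these 3 groups overlapped the control mice. The levels were 5.96, 12.5 and 23.8 CPM with imatinib and 8.42, 13.1 and 24.8 CPM with high-dose nilotinib. With low-dose ponatinib they were 10.25, 16.55 and 27.9 CPM. In each of the last 3 groups 6 of 8 mice were below every control mouse and 2 lay within the control range. Across all treated groups 42 of 48 mice, or 87.5%, were below every control mouse. All 6 treated groups overlapped each other in Palld level, so their order, from low-dose ponatinib down to high-dose ponatinib, was not separated by their spread.

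For scale, every treated mouse was below every control mouse for 1.57% of the genes tested with L-NAME, 0.433% with imatinib, 0.503% with low-dose nilotinib, 1.27% with high-dose nilotinib, 0.0629% with low-dose ponatinib and 0.503% with high-dose ponatinib. The selection used these contrasts, so nothing is read from Palld, Acss3, Armh3 and Myo5a being among them. On the log2 scale the fitted fold change of Palld was -1.87 ± 0.30 (SE) with L-NAME, -1.86 ± 0.30 with high-dose ponatinib, -1.67 ± 0.30 with low-dose nilotinib, -1.16 ± 0.29 with imatinib, -1.08 ± 0.29 with high-dose nilotinib and -0.92 ± 0.29 with low-dose ponatinib. Its mean over the 6 groups was -1.43 ± 0.20, or 2.69-fold lower than control. Higher doses had no common order: the fitted value was more negative at the higher dose of ponatinib and at the lower dose of nilotinib.

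**Figure D1:**
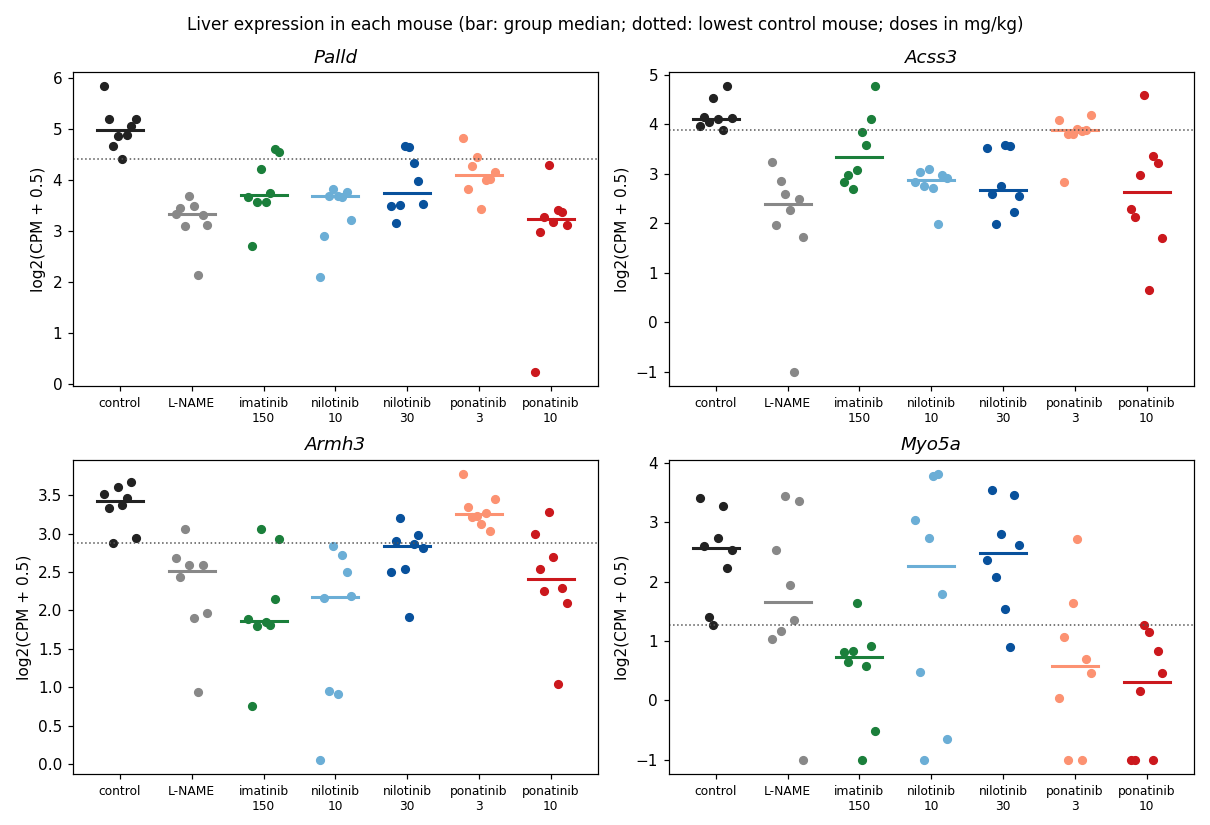
Level of the 4 genes as log2(CPM + 0.5) in each of 56 mice by group, with a bar at the group median and a dotted line at the lowest control mouse. Most treated mice sit below the dotted line for Palld and Acss3, low-dose ponatinib stays at the control level for Armh3, and Myo5a points are low with imatinib and ponatinib and widely spread with L-NAME and low-dose nilotinib.

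Acss3 was below every control mouse in 42 of 48 treated mice, as many as for Palld. Control mice had 14.3, 16.8 and 26.75 CPM (lowest, median and highest; mean 18.2 ± 4.25 SD, n = 8). L-NAME had the lowest median of the 7 groups, with 0 reads in 1 mouse, a median of 4.74 CPM and a highest value of 8.90 CPM. Nilotinib 10 mg/kg gave 3.46, 6.84 and 8.08 CPM and high-dose nilotinib 3.44, 5.88 and 11.5 CPM. None of the mice in these 3 groups reached the control range. With high-dose ponatinib the levels were 1.07, 5.88 and 23.55 CPM, and 1 of 8 mice lay within the control range. The spread between these 8 mice was the widest for Acss3, with a coefficient of variation of 91.8%. With imatinib they were 5.98, 9.77 and 26.8 CPM, and 1 mouse was above every control mouse. With low-dose ponatinib they were 6.67, 14.2 and 17.7 CPM, with 5 of 8 mice below every control mouse and 3 within the control range. Every pair of treated groups overlapped in Acss3 level. The fitted log2 fold change was -1.99 ± 0.39 (SE) with L-NAME, -1.47 ± 0.38 with low-dose nilotinib, -1.32 ± 0.38 with high-dose nilotinib and -1.24 ± 0.38 with high-dose ponatinib. It was -0.58 ± 0.37 with imatinib and -0.40 ± 0.37 with low-dose ponatinib. Without the libraries with few detected genes the value for high-dose ponatinib was -1.92, and with quality weights in limma -1.89.

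Armh3 had a narrow range in control mice, from 6.87 to 12.3 CPM with a median of 10.2 (9.87 ± 1.96 SD, n = 8). Ponatinib 3 mg/kg was the only treated group without a mouse below every control mouse. Of its 8 mice, 7 lay within the control range and 1 above it (7.71, 9.02 and 13.2 CPM). The lowest median was that of imatinib, with 1.19, 3.15 and 7.85 CPM. Nilotinib 10 mg/kg gave 0.540, 4.015 and 6.675 CPM and was the only group in which no mouse reached the control range. The levels were 1.57, 4.85 and 9.26 CPM with high-dose ponatinib, 1.41, 5.21 and 7.87 CPM with L-NAME, and 3.27, 6.65 and 8.74 CPM with high-dose nilotinib. In these groups 6, 7 and 5 of 8 mice were below every control mouse. Over all treated mice it was 32 of 48. On the log2 scale the fitted fold change was -1.41 ± 0.34 (SE) with low-dose nilotinib, -1.27 ± 0.34 with imatinib, -1.06 ± 0.34 with L-NAME, -0.91 ± 0.34 with high-dose ponatinib and -0.65 ± 0.33 with high-dose nilotinib, but -0.05 ± 0.33 with low-dose ponatinib. The imatinib, L-NAME, nilotinib and high-dose ponatinib groups overlapped each other. Low-dose ponatinib overlapped all of them except low-dose nilotinib.

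Myo5a had a median level of 1.16 CPM or less with imatinib and both doses of ponatinib, and medians within the control range with nilotinib and L-NAME. Its control level was low and spread over 1.92, 5.42 and 10.1 CPM (lowest, median and highest; 5.57 ± 2.96 SD, n = 8). With high-dose ponatinib no mouse exceeded 1.91 CPM, the median was 0.743 CPM, and 3 of 8 mice had no read. With imatinib the median was 1.16 and the highest 2.615 CPM, with 7 of 8 mice below every control mouse and 1 without a read. With low-dose ponatinib the median was 1.00 and the highest 6.07 CPM, with 6 of 8 mice below every control mouse and 2 without a read. The nilotinib groups covered the control range and beyond: the median was 4.59 CPM at 10 mg/kg (0 to 13.6 CPM) and 5.12 CPM at 30 mg/kg (1.36 to 11.2 CPM), and in each of them 2 of 8 mice were above every control mouse. At the low dose 3 of 8 and at the high dose 1 of 8 were below every control mouse. L-NAME mice also spread from 0 to 10.4 CPM, with a median of 2.71 CPM, 3 of 8 below and 1 above every control mouse. Every pair of treated groups overlapped in Myo5a level. The log2 fold change was -2.81 ± 0.81 (SE) with high-dose ponatinib, -2.33 ± 0.79 with imatinib and -1.79 ± 0.77 with low-dose ponatinib. It was -0.38 ± 0.73 with L-NAME, 0.00 ± 0.73 with low-dose nilotinib and 0.04 ± 0.73 with high-dose nilotinib. The low-dose nilotinib value depended on the fit, at -1.47 in limma voom and -1.21 with quality weights. Leaving out replicate 5 of low-dose ponatinib moved the log2 ratio of mean CPM in that group from -1.80 to -2.53. The median Myo5a count was 48.5 reads in control mice and 6.5 reads with high-dose ponatinib, so its values carry more counting error than those of the other 3 genes. A count of 0 allows a level of up to 3 reads, or 0.0308 to 0.562 CPM depending on the library.

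**Figure D2:**
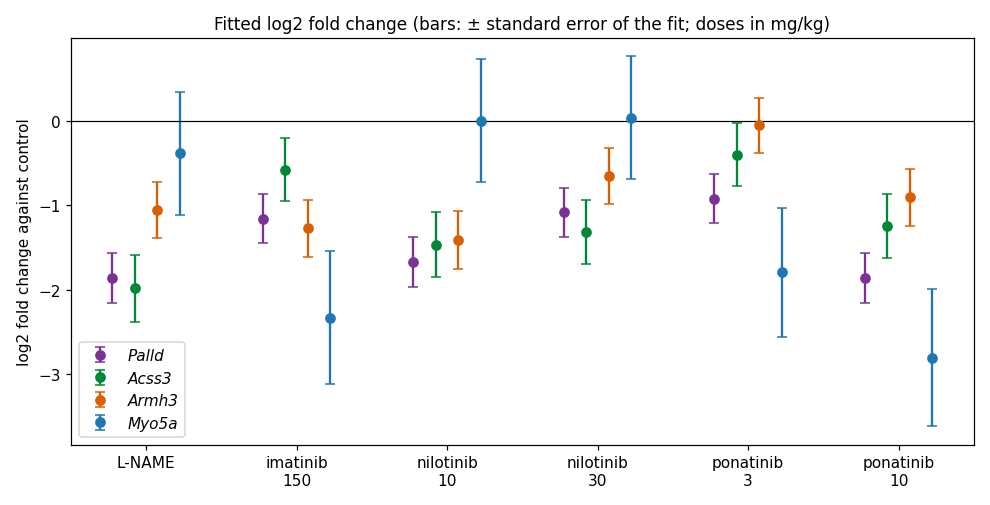
Fitted log2 fold change against the 8 control mice, with bars of 1 standard error, for the 4 genes in the 6 treated groups. Palld lies below 0 in every group, from -1.87 to -0.92, while Myo5a is near 0 with nilotinib in this fit and at -2.81 with high-dose ponatinib, with the longest bars.

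The 4 genes were also counted together in each treated mouse. All 4 were below every control mouse in 17 of 48 treated mice, 3 in 18 mice, 2 in 9 and 1 in 4, and every treated mouse had at least 1 of them below the control range. The genes were selected as lower than these same control mice, so these counts are a description and nothing is read from them. Without the deep L-NAME library (replicate 2), the log2 ratio of mean CPM of L-NAME to control was -1.90 for Palld, -1.93 for Acss3, -1.07 for Armh3 and -0.43 for Myo5a, close to -1.87, -1.98, -1.06 and -0.38 with it. Compared per kilobase of exon, Palld had the highest mean level of the 4 in control mice with 3.21 CPM per kb, followed by Acss3 with 2.53, Armh3 with 2.25 and Myo5a with 0.376 CPM per kb. All exonic bases were used as the length, and 33.9% of those of Acss3 are shared with Ppfia2. Reads there may not have been counted, so the place of Acss3 in this order is not settled.

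Variation between mice of the same group was not used in the selection, so it was tested. After removal of group means, Palld and Acss3 were correlated over 56 mice with a Pearson r of 0.41 (permutation p = 0.0124, adjusted p = 0.124 over 10 relations) and a Spearman rho of 0.41 (permutation p = 0.00284, adjusted p = 0.0284). Without the 2 mice farthest from the Palld median r was 0.51 (permutation, adjusted p = 0.0029). These 2 mice, the lowest of high-dose ponatinib and the highest of the control group, were the farthest for the correlation of Palld with Armh3, which was 0.26 with all mice (permutation p = 0.0894, adjusted p = 0.298; rho = 0.21, permutation p = 0.134, adjusted p = 0.288) and 0.47 without them (permutation, adjusted p = 0.0087). Acss3 and Armh3 had an r of 0.25 (permutation p = 0.0895, adjusted p = 0.298; rho = 0.16, permutation p = 0.265, adjusted p = 0.332) and 0.13 without the 2 farthest mice. Myo5a did not pass with any of the other 3 genes. Its r was 0.11 with Palld (permutation p = 0.412), -0.12 with Acss3 (permutation p = 0.408) and 0.11 with Armh3 (permutation p = 0.53), and 0.00, -0.13 and 0.22 without the 2 farthest mice. With rho these were 0.16, -0.22 and 0.11, with permutation p of 0.255, 0.101 and 0.461. No adjusted p of the Myo5a relations was below 0.288.

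**Figure D3:**
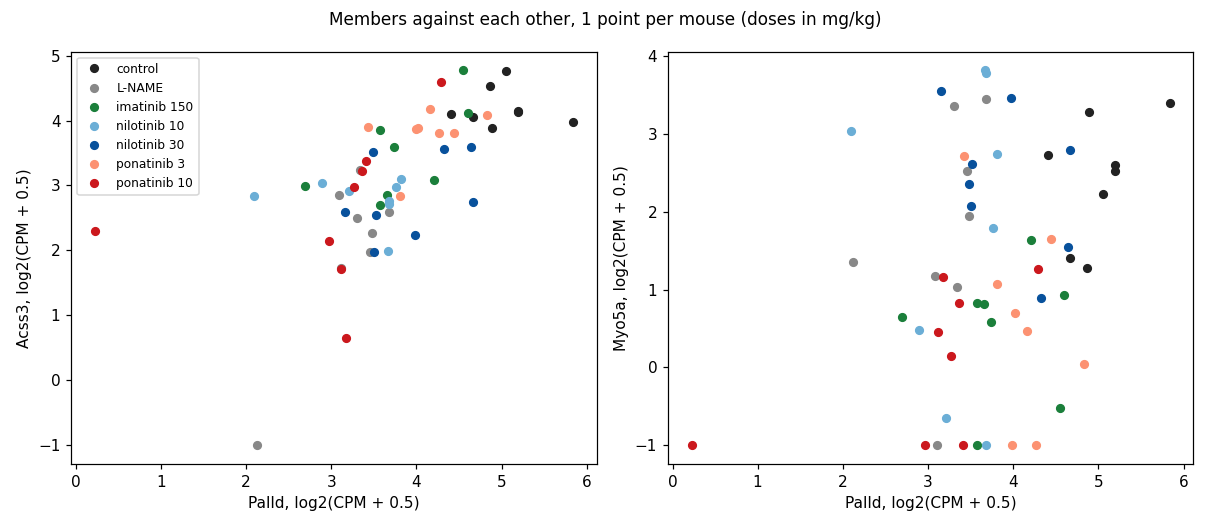
Palld on the x axis against Acss3 (left) and Myo5a (right), both as log2(CPM + 0.5), with 1 point per mouse coloured by group. Palld and Acss3 run from the control mice at the upper right to L-NAME and high-dose ponatinib at the lower left, whereas at similar Palld levels Myo5a is spread from 0 reads to the highest values with low-dose nilotinib and is mostly low with ponatinib. Group means are kept in this figure. The run from control to treated mice therefore holds the differences that selected the genes, and is not the correlation with group means removed.

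The share of reads outside genes, which was higher in most treated groups than in control, was compared with each gene in the same way. With group means removed, r was -0.06 for Palld (permutation p = 0.725), -0.15 for Acss3 (permutation p = 0.407), -0.01 for Armh3 (permutation p = 0.962) and -0.04 for Myo5a (permutation p = 0.798). Spearman rho was -0.18, -0.23, -0.13 and -0.20, with permutation p of 0.204, 0.125, 0.348 and 0.144, and no adjusted p was below 0.288. Without the 2 farthest mice r was -0.17, -0.25, -0.02 and -0.14. Within groups of 8 the r of Palld ran from -0.80 in control mice to 0.58 with high-dose nilotinib. With this share as a covariate, the fitted log2 fold change of Palld ranged from -1.80 to -0.91 over the 6 groups and that of Acss3 from -1.64 to -0.33. The part of this share in the lower levels was not otherwise tested.

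The genes whose level followed each member most closely over the 56 mice are given as a description, since group differences enter these correlations. For Palld they were Psmd1, a proteasome subunit, with r = 0.79, Ugt3a1, a UDP-glycosyltransferase, with 0.78, and Nfic, a transcription factor, with 0.76. For Acss3 they were Ugt3a2 (0.86), Ugt1a1 (0.80) and Gm6652 (0.79). Ugt3a2 also came first with group means removed (0.79), before Maob, a mitochondrial monoamine oxidase (0.69), and Hadh, a mitochondrial enzyme of fatty acid oxidation (0.67). With group means removed the closest to Palld were Ext1 (0.67), Tnpo3 (0.66) and Cry1 (0.66). For Armh3, Chmp2b, an ESCRT subunit, came first both with group means (0.68) and without them (0.63), followed by Rrm2 in both (0.68 and 0.61). Arih1 came next with group means (0.66) and Crtap without them (0.61). For Myo5a the closest were H2-Ab1, a class II antigen-presenting gene (0.76), and the fibrillar collagens Col3a1 (0.75) and Col1a1 (0.75). With group means removed they were Mlec, the macrophage elastase Mmp12 and the cell cycle gene Cdc20, each with an r of 0.64.

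Levels of marker genes were read beside these values. Of the 10 hepatocyte markers, 4 were called by edgeR with L-NAME (3 lower), 4 with imatinib (2 lower) and 4 with high-dose nilotinib (3 lower). It was 3 with high-dose ponatinib (1 lower), 2 with low-dose nilotinib (both lower) and 0 with low-dose ponatinib, where 4 had an unadjusted p below 0.05. Of all genes tested, 11.8% were called with L-NAME, 10.3% with imatinib and 5.77% with high-dose nilotinib. With high-dose ponatinib it was 13.1%, with low-dose nilotinib 1.41% and with low-dose ponatinib 0.0419%. These shares hold beside each marker list here. Cps1, a urea cycle enzyme, was called lower in 5 of the 6 groups. Other hepatocyte markers were called higher, 2 with imatinib, 2 with high-dose ponatinib, 1 with L-NAME and 1 with high-dose nilotinib. Of the 10, those with a log2 fold change below 0 numbered 4 with L-NAME and 4 with imatinib. They numbered 5 and 6 with low- and high-dose nilotinib, and 2 and 3 with low- and high-dose ponatinib. Summed over 10 Kupffer cell markers, the level was 963 to 1828 CPM in control mice, 599 to 1203 with imatinib, 753 to 2079 with low-dose ponatinib and 555 to 2790 with high-dose ponatinib. It was 930 to 2257 CPM with L-NAME, 1233 to 2247 with low-dose nilotinib and 1132 to 2118 with high-dose nilotinib. With imatinib 3 of the 10 were called lower, namely Adgre1, Cd5l and Csf1r, and with high-dose ponatinib 2 were called higher, namely Clec4f and Marco. Clec4f was also called higher with L-NAME and with high-dose nilotinib. The sum over 8 leukocyte markers was 27.6 to 53.4 CPM in control mice, 33.8 to 87.5 with L-NAME, 21.9 to 34.1 with imatinib and 19.2 to 71.85 with high-dose ponatinib. It was 13.55 to 80.71 CPM with low-dose ponatinib, 35.07 to 77.71 with low-dose nilotinib and 36.65 to 63.62 with high-dose nilotinib. With L-NAME 0 of the 8 had a log2 fold change below 0, with a median of 1.07 and 2 genes at an unadjusted p below 0.05. Ptprc was called lower with imatinib, and no other leukocyte marker was called by edgeR in any group. The sum over 10 stellate cell markers was 592 to 872 CPM in control mice, 592 to 874 with imatinib and 228.5 to 926 with high-dose ponatinib. It was 604 to 912 CPM with L-NAME, 689.5 to 935 with low-dose nilotinib, 807 to 958 with high-dose nilotinib and 479 to 723 with low-dose ponatinib. Ecm1 was called higher and Lum lower with imatinib and with high-dose ponatinib. Of 5 smooth muscle markers 3 passed the filter. All 5 summed to 12.1 to 24.4 CPM in control mice and 7.99 to 25.3 over all treated mice, and Actg2 had no read in 37 of 56 mice. The sum over 10 sinusoidal endothelial markers was 207 to 608 CPM in control mice, 166.5 to 360 with low-dose and 123.5 to 369 with high-dose ponatinib, and 337 to 557 over the other treated groups. All 10 had a log2 fold change below 0 with both doses of ponatinib (medians of -0.47 and -0.41), against 1 of 10 with either dose of nilotinib and 3 of 10 with L-NAME and with imatinib. Cholangiocyte markers summed to 56.7 to 203 CPM in control mice and 60.1 to 256 over all treated mice. None of these endothelial, cholangiocyte or smooth muscle markers was called by edgeR in any group, and at an unadjusted p below 0.05 the count reached 3 endothelial genes, 1 smooth muscle gene and 0 cholangiocyte genes in any group. The part of hepatocytes and of these other cell types in the levels of the 4 genes was not tested.

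Related genes were chosen for each member as family members, partners and genes of its pathway, 82 of 89 of which were tested. Of these, 18 (22.0%) were called with L-NAME at an adjusted p below 0.05, against 11.8% of all genes tested, and 15 of the 18 were lower. With imatinib it was 17 (20.7% against 10.3% of all genes), 13 of them lower, and with high-dose ponatinib 15 (18.3% against 13.1%), 12 lower. Nilotinib 30 mg/kg had 8 (9.76% against 5.77%), 7 lower, and low-dose nilotinib 2 (2.44% against 1.41%), both lower. Ponatinib 3 mg/kg had 0 by edgeR and by DESeq2 (against 0.0419% of all genes), with 11 genes at an unadjusted p below 0.05. The median log2 fold change of the 82 genes was -0.16 with L-NAME, -0.15 with imatinib and -0.17 with high-dose ponatinib, against 0.02, -0.02 and -0.01 over all genes. With the share of reads outside genes as a covariate, fewer of these calls were left. They numbered 5 with L-NAME, 9 with imatinib, 3 with high-dose ponatinib and 0 with either dose of nilotinib. This share was at most 8.67% in control mice and at least 8.81% in every L-NAME, nilotinib and high-dose ponatinib mouse. The covariate and these treatments can therefore hardly be separated, and why calls were lost was not tested. Of 52 calls among the named related and neighbouring genes, 16 remained with this covariate. They were those of Actb, Actn1, Actn4, Dynll2, Flna, Mcee, Suclg1 and Vcl with imatinib, of Actn4, Golph3, Mut, Osbp and Pcca with L-NAME, and of Actn1, Actn4 and Mut with high-dose ponatinib.

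Among the actin partners of palladin, the alpha-actinins fell in several groups. For single genes here and below, fell and rose name only the groups in which edgeR called the gene. Actn4, which crosslinks actin filaments, fell from a mean of 198 to 108 CPM with high-dose ponatinib (log2 fold change -0.88 ± 0.16, edgeR adjusted p = 0.000206, below the control median in 8 of 8 mice). It also fell with L-NAME (-0.80), imatinib (-0.66) and high-dose nilotinib (-0.53). Actn4 was not called with low-dose nilotinib (-0.51, edgeR adjusted p = 0.0915) or low-dose ponatinib (-0.41, edgeR adjusted p = 0.347). In both of these groups 8 of 8 mice were below the control median. Actn1, its close relative, fell with high-dose ponatinib (-0.74 ± 0.14, edgeR adjusted p = 0.000255, 8 of 8 mice), imatinib (-0.59) and L-NAME (-0.50). Actb, cytoplasmic actin, fell with imatinib only by this test (-0.52 ± 0.14, edgeR adjusted p = 0.0095, 8 of 8 mice), and the difference from the other groups was not tested. Pfn1, the actin monomer-binding profilin, rose with L-NAME (0.44 ± 0.11, edgeR adjusted p = 0.00388, 8 of 8 mice), high-dose nilotinib (0.36) and high-dose ponatinib (0.33). In all, 5 of 14 genes of this list were called lower with imatinib, 3 with L-NAME and 2 with high-dose ponatinib. It was 2 with high-dose nilotinib and 0 with low-dose nilotinib or low-dose ponatinib. Over all 14314 genes, 656, 893, 840, 491, 135 and 6 were called lower in these groups, in the same order. Called or not, 12 of the 14 had a log2 fold change below 0 with imatinib and 11 with either dose of ponatinib. It was 8 with L-NAME and 6 and 7 with low- and high-dose nilotinib. Of the contractile genes, Cald1, a regulator of actomyosin, fell with L-NAME (-0.57 ± 0.13, edgeR adjusted p = 0.00221, 8 of 8 mice), high-dose ponatinib (-0.51), high-dose nilotinib (-0.42) and imatinib (-0.42). Cald1 was not called with low-dose nilotinib (-0.47, edgeR adjusted p = 0.0501) or low-dose ponatinib (-0.35, edgeR adjusted p = 0.316), each with 8 of 8 mice below the control median. Vcl, a focal adhesion protein, and Flna, an actin crosslinker, fell with imatinib, by 0.81 and 0.85 on the log2 scale. The palladin relatives Mypn and Myot did not pass the filter, with 38 and 0 reads in all 56 mice.

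On the propionate route of Acss3, Pcca, a subunit of propionyl-CoA carboxylase, fell in 5 of the 6 treated groups, most with L-NAME (from 97.3 to 60.7 CPM, log2 fold change -0.68 ± 0.13, edgeR adjusted p = 0.00026, 8 of 8 mice), and by 0.51 with low-dose nilotinib, 0.48 with high-dose ponatinib, 0.43 with high-dose nilotinib and 0.39 with imatinib. With the share of reads outside genes as a covariate, of these 5 calls only that with L-NAME remained. Mut, the methylmalonyl-CoA mutase, fell with L-NAME (-0.77 ± 0.14, edgeR adjusted p = 0.000192, 8 of 8 mice), high-dose ponatinib (-0.74), high-dose nilotinib (-0.70) and imatinib (-0.46). Mut was not called with low-dose nilotinib (-0.49, edgeR adjusted p = 0.054), with 8 of 8 mice below the control median. Mcee, the epimerase between them, rose instead with imatinib (0.68 ± 0.15, edgeR adjusted p = 0.0024, 8 of 8 mice), L-NAME (0.63) and high-dose ponatinib (0.58). Suclg1, a subunit of succinyl-CoA ligase, rose with imatinib (0.47 ± 0.12, edgeR adjusted p = 0.00606, 8 of 8 mice). With low-dose ponatinib Pcca and Mut had log2 fold changes of -0.08 and -0.05 and no gene of the route was called by edgeR, with 1 at an unadjusted p below 0.05. Of 7 other short and medium chain acyl-CoA synthetases tested, Acsm5 fell with high-dose ponatinib (-0.40 ± 0.13, edgeR adjusted p = 0.0279, 7 of 8 mice) and none was called elsewhere. Acss2, the cytosolic acetyl-CoA synthetase, was not called in any group, with log2 fold changes from -0.76 ± 0.31 with L-NAME (edgeR adjusted p = 0.0997) to 0.68 ± 0.31 with low-dose ponatinib (edgeR adjusted p = 0.431). Acss1, the mitochondrial acetyl-CoA synthetase, was at 0.786 CPM in control mice and was not called either.

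Around Armh3, 8 of 19 Golgi lipid kinase, ARF and lipid transfer genes were called with L-NAME, 7 lower and 1 higher, and 4 with high-dose ponatinib, 3 lower and 1 higher. Over all 14314 genes 893 and 840 were called lower. The higher gene was Arf5 in both groups, named after its values were seen. Osbp, which exchanges sterol for PI4P at the Golgi, fell from 89.4 to 49.4 CPM with L-NAME (-0.86 ± 0.15, edgeR adjusted p = 0.000158, 8 of 8 mice) and by 0.53 with high-dose ponatinib. Osbp was not called with imatinib (-0.37), low- or high-dose nilotinib (-0.37 and -0.43) or low-dose ponatinib (-0.40). In these groups 8, 6, 8 and 8 of 8 mice were below the control median. Golph3, a PI4P reader, fell by 0.53 with L-NAME and 0.35 with high-dose ponatinib. Sacm1l, the PI4P phosphatase, fell by 0.58 with low-dose nilotinib and 0.54 with L-NAME. Arf3 fell with high-dose ponatinib (-0.46 ± 0.11, edgeR adjusted p = 0.00291, 8 of 8 mice). With imatinib, where the Armh3 median was lowest, 1 of the 19 was called, Pi4ka, which was lower and is named after its value was seen.

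Among 18 tested relatives and cargo adaptors of myosin Va, Rab10, a vesicle GTPase, fell with L-NAME (-0.63 ± 0.14, edgeR adjusted p = 0.00133, 8 of 8 mice), high-dose ponatinib (-0.55) and imatinib (-0.51). Rab10 was not called with low- or high-dose nilotinib (-0.48 and -0.41) or low-dose ponatinib (-0.19), each with 8 of 8 mice below the control median. Dynll2, the light chain carried by class V myosins, fell with high-dose ponatinib (-0.53 ± 0.15, edgeR adjusted p = 0.00899, 8 of 8 mice) and imatinib (-0.50). Rab11a rose with imatinib (0.32 ± 0.11, edgeR adjusted p = 0.0491, 7 of 8 mice). Myo5b, the epithelial class V myosin, fell with high-dose ponatinib (from 26.9 to 18.9 CPM, -0.50 ± 0.18, edgeR adjusted p = 0.0454, 8 of 8 mice), where Myo5a also had its lowest level. With imatinib Myo5b had a log2 fold change of -0.08 ± 0.17. Myo5c did not pass the filter, with 302 reads in all mice.

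The nearest tested genes on either side were read in the same fit to see whether they moved with the members. In 48 comparisons of 8 neighbours, 7 were called and 6 of the 7 were higher. Of the 8 neighbours 3 were called with imatinib (10.3% of all genes), 2 with high-dose ponatinib (13.1%), 1 with L-NAME (11.8%), 1 with high-dose nilotinib (5.77%) and 0 with low-dose nilotinib (1.41%) or low-dose ponatinib (0.0419%). Beside Palld, Cbr4 (4.74 kb away) rose with imatinib (0.46 ± 0.15, edgeR adjusted p = 0.0364, 8 of 8 mice), and Ddx60 (25.4 kb away) had log2 fold changes between -0.11 and 0.26. Beside Acss3, Lin7a (148 kb away) rose with high-dose ponatinib (0.59 ± 0.20, edgeR adjusted p = 0.0373, 8 of 8 mice). Ccdc59, on its other side and 1090 kb away, rose with high-dose ponatinib (0.55) and L-NAME (0.54). Beside Armh3, Mgea5 and Hps6 were not called. Beside Myo5a, Arpp19 (10.7 kb away) rose with high-dose nilotinib (0.40) and imatinib (0.38), and Mapk6 (145 kb away) fell with imatinib (-0.47 ± 0.16, edgeR adjusted p = 0.0493, 8 of 8 mice). None of the 7 calls was left with the share of reads outside genes as a covariate.

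The 4 genes share a long genomic span, which the selection did not use, so all tested genes were divided into deciles by span. The median log2 fold change was highest in the second shortest decile, with a median span of 4.16 kb, and lowest in the longest decile in all 6 treated groups. With L-NAME it was 0.30 in the second decile and -0.18 in the longest, with imatinib 0.21 and -0.25, and with high-dose ponatinib 0.26 and -0.20. With low-dose nilotinib it was 0.17 and -0.12, with high-dose nilotinib 0.24 and -0.12, and with low-dose ponatinib 0.11 and -0.13. The longest decile held 1427 genes of at least 110410 bases, all 4 members among them. Of the genes called in this decile, 139 of 144 were lower with L-NAME, 122 of 127 with imatinib, 121 of 137 with high-dose ponatinib, 70 of 73 with high-dose nilotinib, 28 of 29 with low-dose nilotinib and 1 of 1 with low-dose ponatinib. Over all genes 893 of 1688 calls were lower with L-NAME, 656 of 1471 with imatinib, 840 of 1877 with high-dose ponatinib, 491 of 826 with high-dose nilotinib, 135 of 202 with low-dose nilotinib and 6 of 6 with low-dose ponatinib. In the longest decile the share called was 10.1% with L-NAME, 8.90% with imatinib and 9.60% with high-dose ponatinib, beside 11.8%, 10.3% and 13.1% of all genes. It was 5.12% with high-dose nilotinib, 2.03% with low-dose nilotinib and 0.0701% with low-dose ponatinib, beside 5.77%, 1.41% and 0.0419%. With the share of reads outside genes as a covariate, the lower calls of this decile numbered 21 with L-NAME, 57 with imatinib and 25 with high-dose ponatinib. The part of length in the levels of the 4 genes was not tested.

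**Figure D4:**
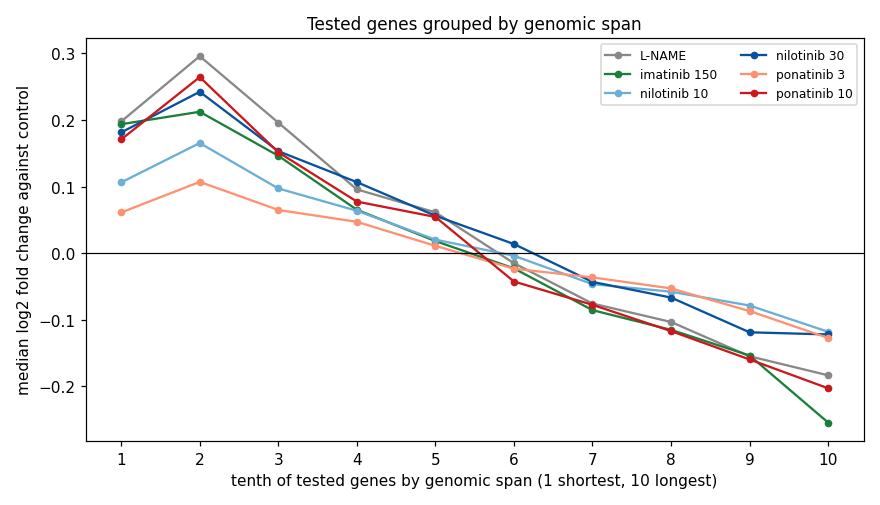
Median log2 fold change against control (y axis) of all 14314 tested genes grouped into deciles by genomic span (x axis, 1 shortest, 10 longest), with 1 line per treated group. The lines run downward from the second decile and end between -0.25 and -0.12 in the longest decile, in which Palld, Acss3, Armh3 and Myo5a lie.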

How the data were processed

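Liver mRNA was enriched by poly(A) selection and sequenced on an Illumina NextSeq. Per the labels and the methods of the study, the authors aligned reads with TopHat2 2.0.14 and Bowtie2 2.1.0 (SAMtools 0.1.18) to GRCm38 and deposited raw counts per gene and mouse from HTSeq-count 0.6.1p1, in which reads aligned to several places fall on no gene. The strand setting is not given in the sources used here. Each library is 1 mouse, and replicate numbers within a group follow accession order. No within-group pair of libraries agreed within sampling noise.

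Here 44585 of 45513 identifiers were matched to GENCODE vM21. Counts of all 56 mice were fitted with edgeR 4.0.16 (R 4.3.3; TMM, filterByExpr, quasi-likelihood test, 7 groups, no covariate), and a gene was called at a Benjamini-Hochberg adjusted p below 0.05 over 14314 genes. The standard error of a fold change was taken from its F statistic. Correlations used log2(CPM + 0.5) with group means removed and 100000 permutations within groups, two-sided. Depth was 5342379 to 97473341 reads on genes. Alternatives were median-ratio size factors, no filter, DESeq2 1.42.0, limma 3.58.1 voom without and with quality weights, fits of 2 groups, an unadjusted p below 0.01, medians, and the share of reads outside genes as a covariate. The floor for a count of 0 is 3 reads and covers counting error only.

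The 4 members and the lists of related and marker genes were chosen with earlier results of these data known. Named genes were the members, their nearest tested neighbours, the direct paralogs, up to 4 called genes per related list by smallest adjusted p (or the 2 most abundant if none was called), and the 3 genes most alike each member with and without group means. Marker genes named, the libraries named as standing apart, and the genes overlapping a member were named after their values were seen. No member was tested against control, because these contrasts selected the members.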

Additional observations from a re-analysis of the deposited data

Results flagged for a closer look

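Of 28 sets of 8 mice (4 genes in 7 groups), 5 had a mouse far from the others by Dixon's criterion, which chance meets in about 1 of 20 groups. For Palld the highest control mouse had 56.65 CPM, where the next had 36.0 CPM. For Acss3 the lowest mouse had 3.46 CPM with low-dose nilotinib (the next 6.04) and 6.67 CPM with low-dose ponatinib (the next 13.4), and the highest mouse had 23.55 CPM with high-dose ponatinib (the next 9.84). For Myo5a the highest mouse with low-dose ponatinib had 6.07 CPM, where the next had 2.63 CPM.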

How the results depend on the processing

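Under 10 alternatives, 237 fitted fold changes of the 4 genes moved by less than the spread between mice and 3 by more. The 3 were those of Myo5a in limma voom, -1.47 with low-dose nilotinib, -2.94 with low-dose ponatinib and -3.92 with high-dose ponatinib. Quality weights gave -1.21, -2.68 and -3.46. The mice without a Myo5a read enter voom on a log scale, and the cause was not otherwise tested. The spread between mice is a wider measure than the SE. The 237 therefore include Acss3 with high-dose ponatinib, at -1.24 ± 0.38 (SE) in the main fit. It was -1.92 without the 11 libraries with few detected genes and -1.89 with quality weights. Leaving out each mouse in turn moved the ratio of mean CPM to control by at most 1.66-fold, for Myo5a with low-dose ponatinib.

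The count of related genes called changed with the share of reads outside genes as a covariate to 5 with L-NAME, 9 with imatinib, 0 with either dose of nilotinib and 3 with high-dose ponatinib. Quality weights gave 31, 28, 15 (low-dose nilotinib), 23 (high-dose nilotinib), 3 (low-dose ponatinib) and 29. For low-dose nilotinib the count was 5 in fits of 2 groups and in DESeq2, 6 in voom and 7 at an unadjusted p below 0.01. For high-dose nilotinib it was 14 in fits of 2 groups, 13 in DESeq2, 17 at the unadjusted p and 4 without the filter, and for low-dose ponatinib 3 at the unadjusted p. Without the 11 libraries with few detected genes, an alternative chosen after seeing the data like the leaving out of mice, it was 9 with imatinib and 6 with low-dose nilotinib. Of 52 calls among named related and neighbouring genes, 16 remained with the covariate, 39 without the filter, 39 without the 11 libraries and at least 46 under each other alternative. Calls among neighbours went from 7 to 0 with the covariate, 2 without the filter, 14 with quality weights, 4 with detected genes as a covariate and 3 without the 11 libraries.

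For long genes all alternatives were added after seeing the data. Lower calls numbered 21 (L-NAME), 57 (imatinib), 4 and 11 (low- and high-dose nilotinib) and 25 (high-dose ponatinib) with the covariate, and 286, 319, 105, 203 and 287 with quality weights, which gave 53 with low-dose ponatinib. Voom gave 45 with low-dose nilotinib, 184 with high-dose ponatinib and 0 with low-dose ponatinib. The unadjusted p gave 78 and 109 with nilotinib and 35 with low-dose ponatinib, and fits of 2 groups 109 with high-dose nilotinib. With low-dose ponatinib the count of 1 became 3 without the filter, 2 in DESeq2 and 0 in fits of 2 groups and without the 11 libraries, where imatinib had 77. Leaving out the 2 farthest mice raised the correlation of Palld to 0.51 with Acss3 and 0.47 with Armh3, both then past the adjusted threshold. Without TMM these were 0.38 (permutation, adjusted p = 0.187) and 0.26 (permutation, adjusted p = 0.373). The correlation of the share outside genes with Armh3 was 0.0052 without TMM and -0.0071 with it. No paired analysis was possible because the labels give no replicate number that groups share, and the numbers used here only name mice. Low counts limit Myo5a most.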
